A study of Mus musculus with 6 samples.

Results

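The insulin-like growth factor (IGF) system was read in C2C12 cells, a mouse myoblast line that stops dividing and forms myotubes in low serum. The 10 genes followed were taken by name: the ligands Igf1 and Igf2, the receptors Igf1r and Igf2r, and the binding proteins Igfbp2, Igfbp3, Igfbp4, Igfbp5, Igfbp6 and Igfbp7. Every probe set that the platform annotation pairs with exactly 1 of these genes was used, which gave 28 of the 45101 probe sets on the array, and 10 of 18194 genes. One array each was made from parental cells in growth medium (GM, 10% fetal bovine serum) and at days 0, 2 and 4 of differentiation. The day 0 cells were already in differentiation medium (2% horse serum), as were those of days 2 and 4. A further array each came from day 0 cells stably transfected with a hairpin against Rp58 (shRp58) and from their control line, both selected with G418 at 500 µg/ml. The labels call that control both a LacZ vector and a control hairpin, and do not say whether the lines were pools or clones. Rp58, now named Zbtb18, is a zinc finger repressor of transcription.

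IGF1 and IGF2 are secreted peptides related to insulin. Both act through the tyrosine kinase receptor encoded by Igf1r, which feeds the PI3 kinase to Akt pathway and the MAP kinase pathway, whereas the Igf2r product binds IGF2 and carries it to lysosomes without signalling as a kinase. The binding proteins hold IGFs outside the cell and either keep them from the receptor or store and present them, and proteases that cut the binding proteins release the ligand. In muscle, IGFs support both myoblast growth and differentiation, and Igf2 made by the myoblasts themselves is known as a factor that drives their differentiation.

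Each group held 1 array, so there was no replicate error and no test. Values are log2 units of the authors' RMA summary (a background-corrected, normalized summary of the probes in a set), and differences are between 2 arrays. The median of all probe sets was 8.27 over the time-course arrays and 7.15 over the stable-line arrays, so the 2 sets of arrays were read apart. A value below the median of its own set is called dim. Of 28 probe sets, 3 were dim on all 4 time-course arrays and 7 on both stable-line arrays. For each gene the probe set with the highest mean over the 6 arrays is given first and the others after it, since different probe sets have different affinities and their levels cannot be set against each other. A gene was kept if its highest value reached 7.95, the median of all values, and all 10 genes were, among 13242 kept genes in all. Zbtb18 itself, read by 1 probe set, stood at 11.16 in shRp58 cells and 11.69 in control cells, and at 11.18, 11.88, 12.86 and 13.06 along the time course. The muscle markers Myod1, Myf5, Des, Myog, Acta1 and Ckm were above the median on all 6 arrays, and Myh3 was dim in GM. Of markers of other cell types, all 4 measured for adipocytes and 3 of 4 for endothelium were dim on every array. So were 3 of 4 for leukocytes, 2 of 3 for osteoblasts and 2 of 3 for hepatocytes. The exceptions were Kdr for endothelium, Cd3e for leukocytes, Ttr for hepatocytes and Alpl for osteoblasts, the last dim only at day 0. On the time-course arrays Cd3e read 9.75 to 10.29, Kdr 9.44 to 9.46 and Ttr 9.21 to 9.51. Whether values at such levels show expression was not tested. The 3 dim leukocyte markers were Ptprc, Cd68 and Itgam, which macrophages also express. The 3 genes listed for macrophages were above the median on all 6 arrays, so markers of that cell type disagreed. The mean over the 7 muscle markers was 10.82 in GM and 12.56, 13.34 and 13.53 at days 0, 2 and 4, and so was higher on each later array. Myog, Myh3, Acta1 and Ckm each had this order, as had Igf2. The other muscle markers did not: Myf5 read 11.21, 10.35 and 9.93 at days 0, 2 and 4. Myod1 was lower at day 2 than at day 0, and Des slightly lower at day 4 than at day 2. The muscle marker mean was 11.89 in shRp58 cells and 12.54 in control cells. The mean over the 3 genes listed for macrophages stayed between 9.60 and 9.82 on the time-course arrays. Its members went different ways: at day 4 and day 0, Csf1r read 10.09 and 9.66, Adgre1 9.49 and 9.22, and Cd14 9.23 and 10.01. The part of cell composition in the results was not tested, and in such bulk RNA fewer cells of a type and less RNA per cell cannot be told apart.

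The promoter windows of the 4 genes that stood at least 2-fold apart at day 2 or day 4 against day 0 are shown first, because the muscle regulators MyoD and myogenin, and Rp58, bind short DNA elements. All 10 genes matched the RefSeq promoter table (GRCm38.p6), with 14 windows of 300 bases, from 250 bases before to 50 after each annotated start. Igf2 has 4 such starts and Igfbp2 has 2, and the arrays do not tell which was used. For each gene the window furthest upstream is printed 5′ to 3′, with capitals marking CANNTG, the E-box bound by myogenic helix-loop-helix factors, and ACATCTG, the core of the sequence bound by Rp58.
Igf1 (chr10:87860861-87861160, plus strand): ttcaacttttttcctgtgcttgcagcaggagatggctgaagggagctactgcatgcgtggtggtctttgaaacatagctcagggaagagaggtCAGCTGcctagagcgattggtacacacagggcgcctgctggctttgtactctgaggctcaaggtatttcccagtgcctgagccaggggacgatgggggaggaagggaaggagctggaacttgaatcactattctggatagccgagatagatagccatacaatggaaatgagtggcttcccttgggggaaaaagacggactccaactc
Igf2 (chr7:142666767-142667066, minus strand): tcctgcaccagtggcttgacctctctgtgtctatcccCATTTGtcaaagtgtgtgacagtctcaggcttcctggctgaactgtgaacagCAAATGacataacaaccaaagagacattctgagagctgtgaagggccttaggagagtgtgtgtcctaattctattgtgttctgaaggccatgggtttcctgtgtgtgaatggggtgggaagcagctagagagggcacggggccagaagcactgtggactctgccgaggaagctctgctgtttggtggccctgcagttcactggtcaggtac
Igfbp2 (chr1:72824230-72824529, plus strand): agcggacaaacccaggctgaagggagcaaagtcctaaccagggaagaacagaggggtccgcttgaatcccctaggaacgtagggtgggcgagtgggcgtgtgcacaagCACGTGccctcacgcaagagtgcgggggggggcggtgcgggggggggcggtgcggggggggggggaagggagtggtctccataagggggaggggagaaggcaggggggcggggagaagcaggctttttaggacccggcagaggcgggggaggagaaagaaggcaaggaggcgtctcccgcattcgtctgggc
Igfbp4 (chr11:99040994-99041293, plus strand): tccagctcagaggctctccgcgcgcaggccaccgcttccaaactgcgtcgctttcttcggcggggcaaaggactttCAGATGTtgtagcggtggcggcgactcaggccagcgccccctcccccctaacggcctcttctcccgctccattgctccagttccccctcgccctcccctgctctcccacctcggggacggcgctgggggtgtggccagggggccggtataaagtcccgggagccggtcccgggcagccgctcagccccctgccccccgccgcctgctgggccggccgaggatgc

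On either strand, CANNTG was found in 10 of the 14 windows and in 72.3% of 32851 windows of the same length over all genes. The E-box form CAGCTG was in 1 window, that of Igf1, at base -157 from the start, against 16.3% of all windows. ACATCTG, which always contains a CANNTG and here reads on the other strand, was in 1 window, that of Igfbp4, at base -174, against 4.43% of all windows. The MEF2 motif was in 0 of 14 and in 0.557% of all windows. The windows differed in base composition, with 76.0% G and C and 48 CpG in Igf1r, and 52.3% and 2 in the first window of Igf2, beside medians of 52.7% and 7 over all windows. These matches describe letters in the window and do not show binding.

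Among the 4 time-course arrays the 10 genes followed different courses. Igf2, Igf1 and Igfbp4 were higher during differentiation, but at different times. Igfbp2 was lower, step by step. Igf2r, Igfbp5 and Igfbp6 differed most between GM and day 0, and Igf1r and Igfbp7 had the smallest ranges.

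**Figure D1:**
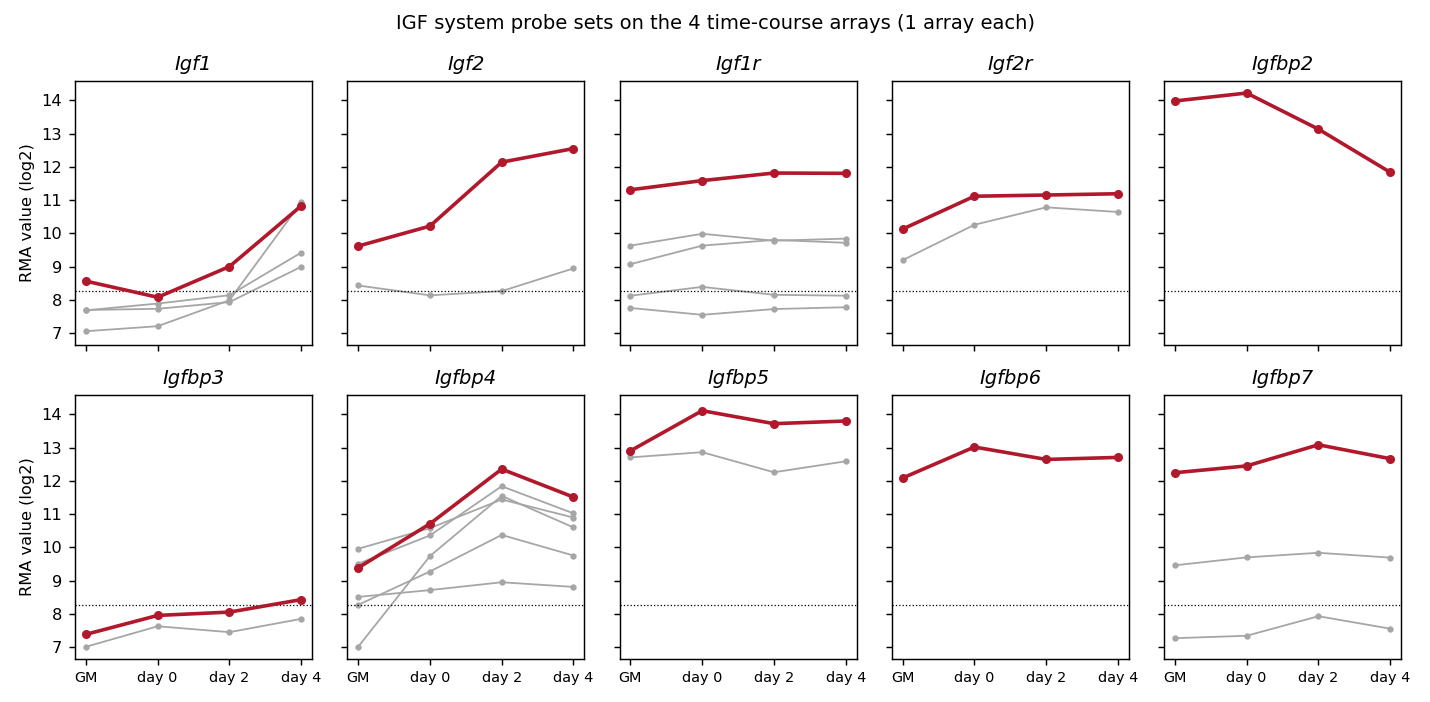
RMA values (log2, y axis) of all 28 probe sets of the 10 genes in growth medium (GM) and at days 0, 2 and 4 (x axis), with 1 array per point. Red lines are the probe set that stands for the gene, grey lines its other probe sets, and the dotted line is the median of all probe sets, 8.27. The largest step of Igf1 lies between day 2 and day 4 and that of Igf2 between day 0 and day 2, Igfbp4 is highest at day 2 and Igfbp2 is lower at each day after day 0.

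Igf2, the fetal-type ligand, read 9.62 in GM and then 10.22, 12.14 and 12.55 at days 0, 2 and 4. GM was the lowest array and day 4 the highest, with most of the distance between days 0 and 2. The difference was 0.60 for day 0 against GM, 1.92 for day 2 against day 0 (3.79-fold) and 2.33 for day 4 against day 0 (5.03-fold). Only 0.725% of kept genes differed by as much or more in the upward direction at day 2. The second Igf2 probe set read 8.43, 8.14, 8.26 and 8.95 in the same order and was dim at days 0 and 2. It was 0.81 higher at day 4 than at day 0, and 0.13 higher at day 2, so the 2 probe sets agreed in sign after day 0 and not in size. Between day 0 and GM they differed in sign, the second standing at -0.30.

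Igf1, the ligand that also circulates from the liver, read 8.56 in GM and then 8.08, 9.0 and 10.83 at days 0, 2 and 4. The day 0 value was dim and the lowest of the 4, and the day 4 value stood apart from the rest. The other 3 probe sets were lowest in GM, so day 0 against GM was -0.49 by the first and 0.04 to 0.20 by the others. Day 4 was 2.75 above day 0 (6.72-fold) and 1.82 above day 2 (3.54-fold), a step reached by 0.174% of kept genes. The other 3 probe sets were dim in GM and at days 0 and 2 and went above the median at day 4, where they stood 1.26, 1.53 and 3.72 above day 0. All 4 were at least 2-fold higher at day 4 than at day 2, by 1.06 to 2.94, so the late step did not rest on 1 probe set, but its size did vary. Because they start from dim values, these sizes are not exact. At day 2 the 4 probe sets were 0.20 to 0.92 above day 0, none of them 2-fold.

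Igf1r, the signalling receptor, read 11.31 in GM, 11.59 at day 0, 11.81 at day 2 and 11.80 at day 4. Its whole range was 0.50, the smallest of the 10 genes, and its differences were 0.28, 0.23 and -0.01 over the successive steps. None of its 5 probe sets was 2-fold apart in any comparison, and they ranged from -0.24 to 0.23 for day 2 against day 0. Over the same 4 arrays the range was 2.93 for Igf2 and 2.75 for Igf1.

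Igf2r, the receptor that clears IGF2, read 10.13 in GM and then 11.12, 11.15 and 11.19 at days 0, 2 and 4. The 3 arrays in differentiation medium lay close together and all above GM, day 4 standing 0.07 from day 0. Its difference between day 0 and GM was 0.99 by this probe set, just under 2-fold, and 1.06 by the second, just over it. The second read 9.19, 10.26, 10.78 and 10.64, and so also showed 0.52 between day 2 and day 0.

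Igfbp2, a binding protein abundant in fetal tissue, had 1 probe set, at 13.98 in GM and then 14.22, 13.13 and 11.84 at days 0, 2 and 4. It was the only gene of the 10 that was at least 2-fold lower in any time-course comparison, and it was so in 3 of them. Day 2 against day 0 gave -1.09 (2.12-fold), day 4 against day 2 gave -1.30 and day 4 against day 0 gave -2.38 (5.22-fold). After cyclic loess normalization the day 2 difference was -0.97, under 2-fold. At day 4 only 0.748% of kept genes stood as low or lower against day 0. Igfbp2 and Igfbp5 are neighbouring genes in the RefSeq annotation, yet Igfbp5 differed by only -0.31 for day 4 against day 0.

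Igfbp4, which in many cell types restrains IGF action until cut by the protease encoded by Pappa, read 9.39 in GM and then 10.71, 12.35 and 11.51 at days 0, 2 and 4. It was highest at day 2 and lower again at day 4, though still above day 0. It was 1.32 higher at day 0 than in GM (2.5-fold) and 1.64 higher at day 2 than at day 0 (3.12-fold), and day 4 against day 2 gave -0.84. All 6 probe sets had this order of GM, day 0, day 4 and day 2. Their sizes ran from 0.20 to 2.73 for day 0 against GM, with 3 past 2-fold, and from 0.24 to 1.81 for day 2 against day 0, with 4 past 2-fold. The widest came from a probe set of the type that can read several related transcripts, which was dim in GM at 7.01.

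Igfbp5, the binding protein made in large amounts by differentiating C2 myoblasts, read 12.90 in GM, 14.11 at day 0, 13.72 at day 2 and 13.80 at day 4. The 3 arrays in differentiation medium were all above GM, and day 0 was the highest. The difference between day 0 and GM was 1.21 (2.31-fold), but the second probe set, at 12.71, 12.86, 12.26 and 12.59, gave 0.16 for the same step and had days 2 and 4 below GM. The first probe set is also of the type that can read several related transcripts. With the mean of both probe sets the step was 0.68, under 2-fold, and after cyclic loess normalization the first gave 0.999. After day 0 both were slightly lower, by -0.39 and -0.60 at day 2.

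Igfbp6, which binds IGF2 more tightly than IGF1, had a like course, at 12.09 in GM and 13.02, 12.64 and 12.71 at days 0, 2 and 4. Its difference between day 0 and GM was 0.93, and day 2 and day 4 stood at -0.37 and -0.31 against day 0. Igfbp7, which binds IGFs only weakly, read 12.24, 12.45, 13.08 and 12.67 and was highest at day 2, 0.64 above day 0. Its other 2 probe sets were also highest at day 2, 0.14 and 0.59 above day 0, the larger of them dim throughout. Igfbp3, the main carrier of IGFs in blood, read 7.39, 7.96, 8.06 and 8.43 and was dim on 3 of the 4 arrays. Its first probe set, too, can read several related transcripts. Day 4 was 0.48 above day 0 by this probe set and 0.22 by the second, which was dim on all 4 arrays.

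Read by step, 2 of the 10 genes (Igfbp4 and Igfbp5) were at least 2-fold higher at day 0 than in GM and 0 lower, against 2.91% of kept genes higher and 0.317% lower. The median of all kept genes at this step was 0.10 and that of the 10 genes 0.59, with 9 of 10 above 0 beside 61.2% of all kept genes. Quantile normalization within the set shifted the median of all kept genes by -0.13. The split of all kept genes past 2-fold was 385 higher and 42 lower as deposited, 275 and 71 after that normalization, and 289 and 88 after quantile normalization over all 6 arrays. Relative to the median of all kept genes, Igfbp4 stood at 1.23 and Igfbp5 at 1.11. Muscle genes already differed at this step, with Myh3 at 8.09 in GM and 12.27 at day 0. The parts of medium, cell density and differentiation itself in this step were not tested. At day 2 against day 0, 2 were higher (Igf2 and Igfbp4) and 1 lower (Igfbp2), against 2.67% and 2.96% of kept genes. At day 4 against day 0, 2 were higher (Igf1 and Igf2) and 1 lower (Igfbp2), against 3.83% and 5.66%. At day 4 against day 2, Igf1 was higher and Igfbp2 lower, against 0.808% of kept genes in each direction. The day 2 and day 4 comparisons share the day 0 array, and the last shares an array with both. The comparison with GM uses the day 0 array too, but with the opposite sign. The comparisons therefore do not count as separate evidence. The medians of the 10 genes were 0.16 and 0.22 at days 2 and 4 against day 0, beside -0.01 and -0.04 over all kept genes. For day 4 against day 2 they were 0.05 and -0.03.

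**Figure D2:**
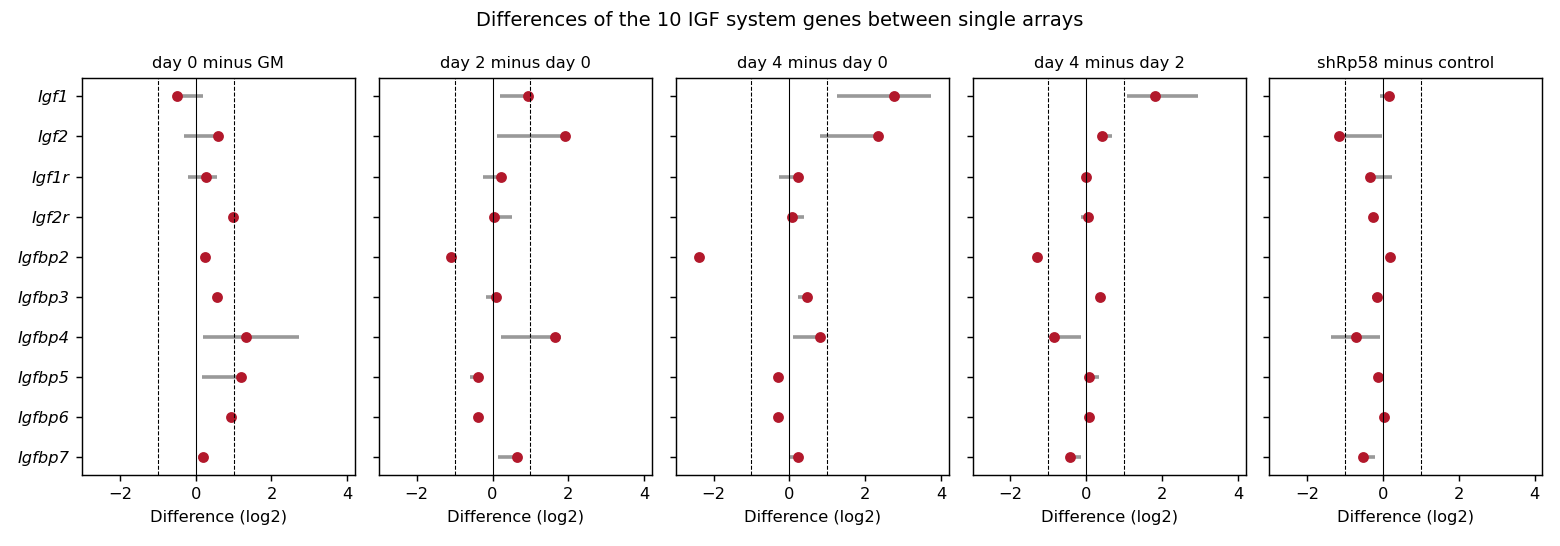
Differences in log2 units (x axis) of the 10 genes (rows) in each of the 5 comparisons, between 1 array and 1 array. Red points are the probe set that stands for the gene, grey bars run from its lowest to its highest probe set, and dashed lines mark 2-fold. The bars are widest for Igf1 at day 4 and for Igfbp4 at day 0, and only Igf2 has its point past 2-fold in the stable lines.

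The comparison of shRp58 with control cells at day 0 asks which of these genes differed when the hairpin was present. Igf2 read 9.78 in shRp58 cells and 10.95 in control cells, a difference of -1.17 (2.25-fold lower), and 0.438% of kept genes stood as low or lower. It was 1 of the 10 genes at least 2-fold lower, with 0 higher, against 0.619% of kept genes lower and 0.0529% higher. The second Igf2 probe set, dim on both arrays, read 6.62 in shRp58 cells and 6.64 in control cells, so the Igf2 difference rested on 1 probe set and was -0.59, under 2-fold, with the mean of both. The muscle marker mean was also lower in shRp58 cells, as given above, and its part in the Igf2 difference was not tested.

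Igfbp4 was lower by all 6 probe sets. The first read 8.83 in shRp58 cells and 9.54 in control cells, a difference of -0.71. The others ran from -0.08 to -1.38, the last from the probe set that was dim in GM and that was also dim in shRp58 cells (6.97, against 8.35 in control cells). Igfbp7 read 11.68 in shRp58 cells and 12.21 in control cells, -0.52, with its other probe sets at -0.22 and -0.48. For both genes every probe set had the same sign, without reaching 2-fold by the first.

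The remaining genes lay closer together. Igf1r read 10.42 in shRp58 cells and 10.76 in control cells (-0.34), with probe sets from -0.41 to 0.23. Igf2r read 10.17 in shRp58 cells and 10.44 in control cells (-0.27), and Igfbp3 8.08 and 8.25 in the same order (-0.17). Igfbp5 stood at -0.14, with its second probe set at 0.02. Igfbp2 was 13.58 in shRp58 cells and 13.40 in control cells (0.17), Igfbp6 12.20 and 12.17 (0.02), and Igf1, dim on both arrays by all 4 probe sets, 6.83 and 6.67 (0.15). In all, 3 of 10 genes lay above 0 and 7 below, beside 47.5% of all kept genes above 0, with a median of -0.22 beside -0.01 over all kept genes. Whether these differences belong to the hairpin or to the line cannot be told apart with 1 array of each.

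**Figure D3:**
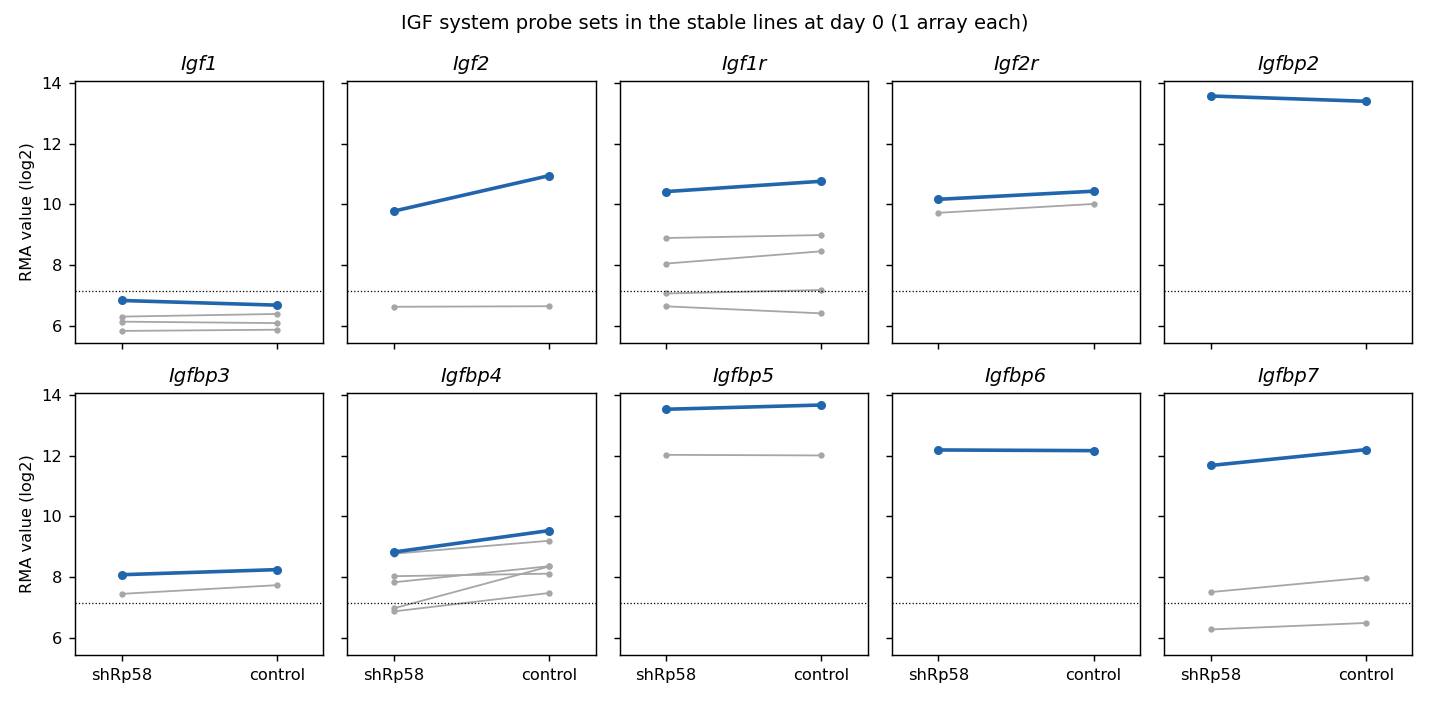
RMA values (log2, y axis) of all 28 probe sets in shRp58 cells (left) and control cells (right) at day 0, with 1 array per point. Blue lines are the probe set that stands for the gene, grey lines the others, and the dotted line is the median of all probe sets, 7.15. The Igf2 line is the steepest blue one, at 9.78 in shRp58 cells and 10.95 in control cells, and Igf1 lies below the median on both.

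Other genes of the pathway were followed in 8 lists with 101 listed genes, of which 90 were measured and 84 kept. The list on IGF availability held proteases, their inhibitors and related secreted proteins, among them the CCN proteins. Of its 16 kept genes, 3 were at least 2-fold higher at day 2 than at day 0 and 5 at day 4, with 0 lower at either. Of all kept genes, 2.67% and 3.83% were higher and 2.96% and 5.66% lower. With 16 genes, a count of 0 lower is near those shares. The protease gene Mmp2 read 10.38, 11.60, 13.26 and 13.05 in GM and at days 0, 2 and 4, and so was 1.22 higher at day 0 than in GM and 1.66 higher at day 2 than at day 0. Adam12, a protease that cuts IGFBP3 and IGFBP5, stood at 8.99, 10.27 and 10.01 at days 0, 2 and 4. Its difference at day 2 was 1.28, and 0.97 by its second probe set, under 2-fold. Pappa2, which encodes a protease for IGFBP5, was 1.27 higher at day 4 than at day 0 and dim until day 4. Pappa, the protease gene for IGFBP4, differed by 0.01 at day 2 and -0.16 at day 4. Its inhibitors Stc1 and Stc2 stood at -0.69 and -0.03 at day 4 against day 0, but their probe sets differed in sign, from -0.69 to 0.12 for Stc1 and from -0.09 to 0.15 for Stc2. Of the secreted CCN proteins, which carry a domain related to that of the IGFBPs, Ccn3 was 1.98 and Ccn2 1.49 higher at day 4 than at day 0, and Ccn2 stood at -1.52 for day 0 against GM. Igfbp1 was below the filter.

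In the list on IGF RNA binding and processing, Hmga2, known to raise Igf2bp2 in mouse myoblasts, was 11.62 at day 4 and 12.95 at day 2, a difference of -1.33, and -1.49 against day 0. Igf2bp1 and Igf2bp3, whose products bind Igf2 mRNA, stayed within 0.46 in size at every step by their first probe sets. Ins2, the gene next to Igf2, stood 0.67 higher at day 4 than at day 0, and the insulin receptor gene Insr 0.79 higher at day 0 than in GM, with its 3 probe sets running from -0.25 to 0.79.

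Of 20 kept substrates, adaptors and PI3 kinase genes inside the cell, 0 were at least 2-fold higher at any step, which for a list of this size is near the share of all kept genes (at most 3.83%). Grb14, an inhibitor of the insulin receptor, was the only one lower, at -1.57 for day 2 and -1.38 for day 4 against day 0. It was dim on all 4 time-course arrays, and its second probe set stood at 0.15 and 0.25. It passed the filter only through its day 0 value, 8.09, the array that days 2 and 4 were set against. With the filter 1 log2 unit higher, 0 pathway genes were lower at day 2 than at day 0. Irs1, the main substrate of the IGF1 receptor, read 12.55, 12.63, 12.73 and 12.38 in GM and at days 0, 2 and 4. Of 24 kept Akt, mTOR and Foxo genes, Sesn1 was 1.27 higher at day 0 than in GM, its 4 probe sets running from 0.26 to 1.46. At day 4 against day 0 the mTOR inhibitor gene Deptor stood at 1.05, its 6 probe sets running from 0.51 to 1.40. Ddit4, another mTOR inhibitor gene, stood at -1.80 there. Akt2, the isoform tied to glucose uptake, read 10.51, 11.35, 11.60 and 11.99, and Akt1 stayed between 12.73 and 12.81 by its first probe set, though another gave 1.17 for day 0 against GM.

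The genes that Foxo factors switch on in wasting muscle, which IGF signalling is known to hold down, did not move as 1 group. The ubiquitin ligase gene Trim63 read 5.22 in GM and then 8.55, 11.72 and 12.07 at days 0, 2 and 4, and was dim in GM. It was 3.34 higher at day 0 than in GM and 3.16 higher at day 2 than at day 0, and the size of the first step is not exact because GM was dim. Fbxo32, the other ligase of this kind, stood at 9.46, 10.85, 12.25 and 11.66. Bnip3 was 1.14 higher at day 0 than in GM, whereas Pdk4 stood at -1.14 at that step and at -1.22 for day 4 against day 2. In the MAP kinase list, Dusp6 was 1.27 higher at day 0 than in GM and the feedback inhibitor gene Spry1 was 1.34 higher at day 2 than at day 0. The glucose transporter gene Slc2a1 stood at -1.48 for day 4 against day 0, and Slc2a4, the insulin-responsive one, at 0.28.

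Counted over all 8 lists, 6 of 84 genes lay past 2-fold upward and 2 downward for day 0 against GM, 6 and 1 for day 2 against day 0, 8 and 4 for day 4 against day 0, and 0 and 2 for day 4 against day 2. Over all kept genes the shares higher and lower were 2.91% and 0.317%, 2.67% and 2.96%, 3.83% and 5.66%, and 0.808% in each direction. The medians of the 84 genes were 0.19, 0.10, 0.05 and -0.05. In shRp58 against control cells 0 were higher and 1 lower, beside 0.0529% and 0.619% of all kept genes, with a median of -0.08 and 29 of 84 above 0 beside 47.5% of all kept genes. That gene was Trim63, at 7.87 in shRp58 cells and 9.24 in control cells (-1.37). Ccn3 (-0.84), Hmga2 (0.75) and Slc2a1 (0.69) came next in size.

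**Figure D4:**
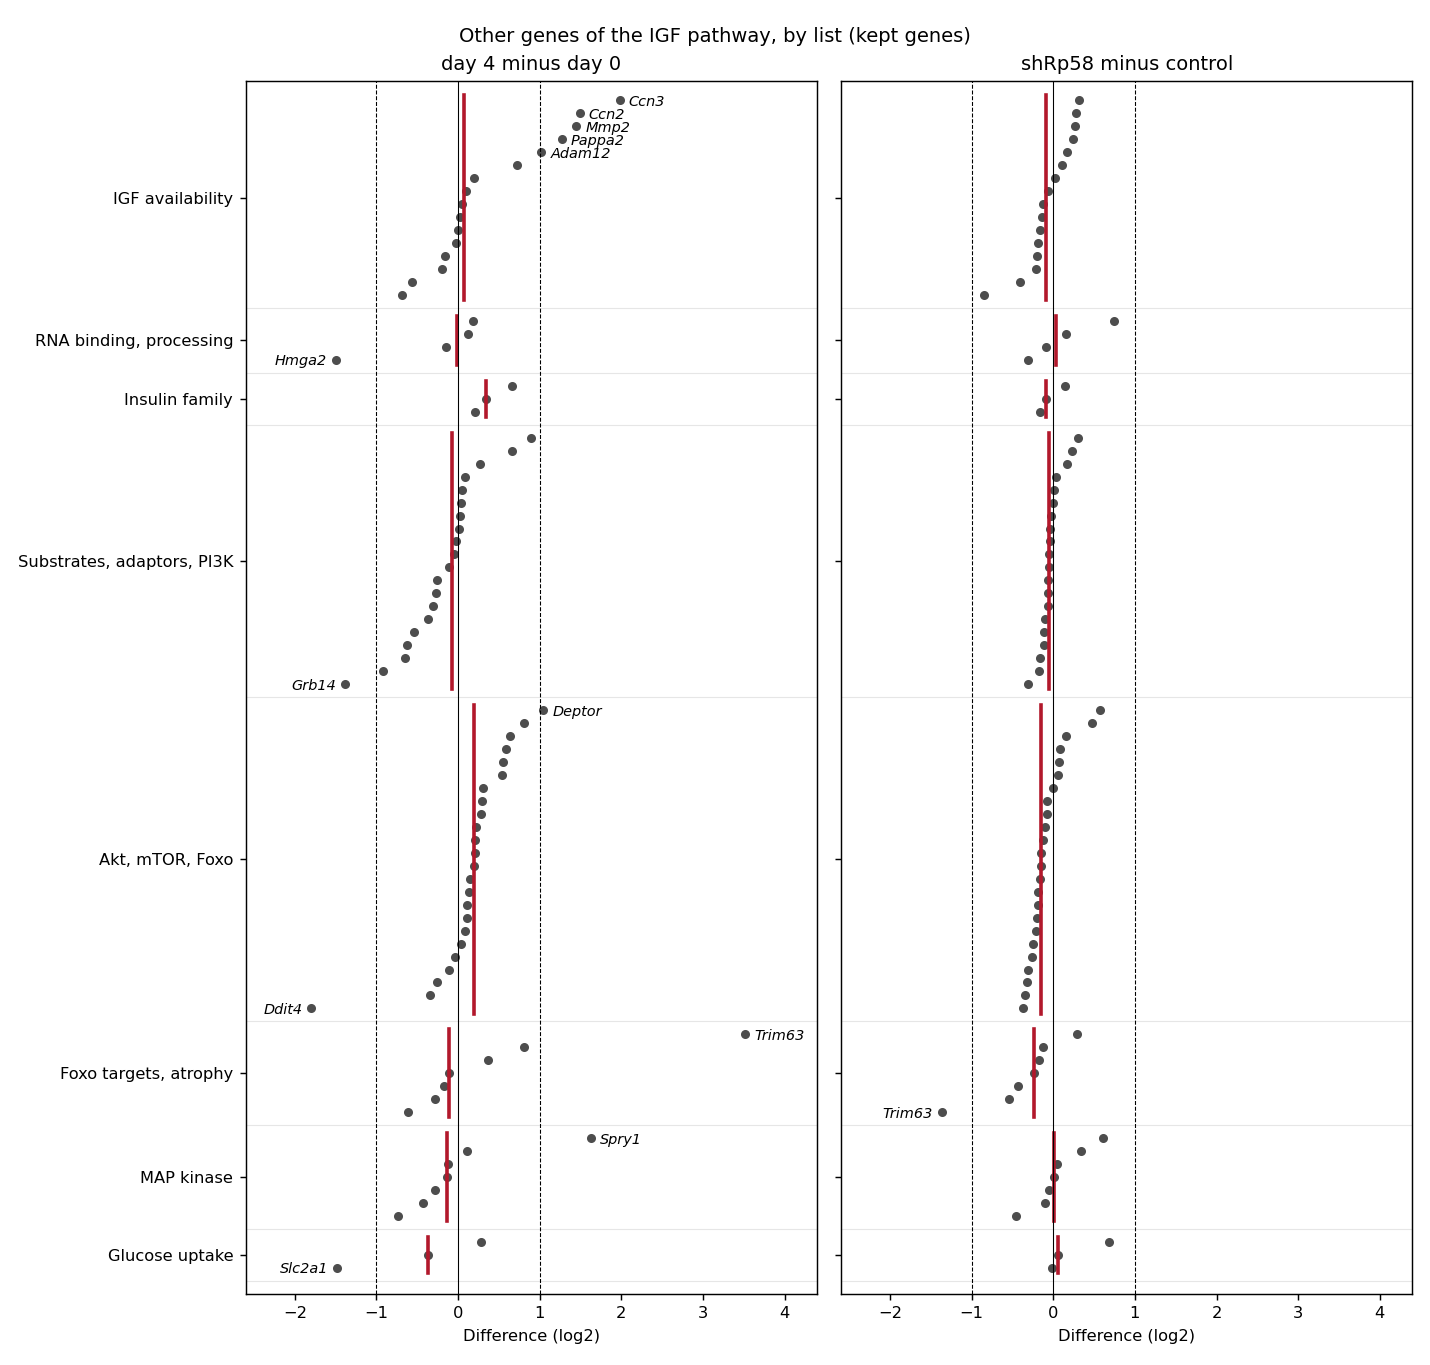
Differences in log2 units (x axis) of the 84 kept pathway genes, grouped by list (rows), for day 4 against day 0 (left) and shRp58 against control cells (right). Each point is a gene between 1 array and 1 array, sorted by size within its list and panel, red bars are list medians, and dashed lines mark 2-fold. At day 4, 8 genes lie past 2-fold upward and 4 downward, and in the stable lines only Trim63 does, at -1.37.

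The genes whose time course was most like that of a member were found by the root mean square distance between values centred on each gene's own mean over the 4 time-course arrays. With 4 arrays such likeness is only a description. For Igf2 the nearest were Hsd11b1 (distance 0.04), which encodes the enzyme that reactivates glucocorticoids, Slc2a6 (0.07) and the membrane repair gene Dysf (0.07). These parted in the stable lines, where Hsd11b1 stood at -0.01, Slc2a6 at -0.98 and Dysf at -0.87, beside -1.17 for Igf2. For Igf1 they were the protease gene Ctsc (0.15), the matrix proteoglycan gene Lum (0.16) and Rnase6 (0.17). For Igfbp4 they were Fbxo32 (0.10), the activin subunit gene Inhbb (0.18) and ceruloplasmin, Cp (0.19), which stood at -0.54, -0.86 and -0.82 in shRp58 against control cells, beside -0.71 for Igfbp4. Igfbp2 was nearest to Tes (0.09), Procr (0.10) and the pentose phosphate enzyme gene Tkt (0.13). Igfbp5 was nearest to Bnip3 (0.02), Flot1 (0.04) and Sp3 (0.04), and Igf2r to Gatm, Gulp1 and Zfp58 (0.04 each). Igfbp3 was nearest to Creb3, Ppp3cb and Becn1 (0.02 each).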

How the data were processed

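Affymetrix mouse arrays took 10 ug of cRNA each, and the authors summarised them by RMA, as the design text states. The deposited unit, log2, was read from the range of the values. The software used and the arrays processed together were not given in the sources used here. Array number limits the precision. Probe sets were named from the platform annotation. It gave 1 gene for 34958 and several for 932, among them 1 paired with Igf2r and another gene, which was left out. Symbols were updated by Entrez ID through the RefSeq table of GRCm38.p6. Differences are of log2 values between 2 arrays, and a gene counts as apart at 2-fold. The 5 comparisons, the members and the lists were chosen with earlier results of these data known. All members are named. Pathway genes are named by the rule of at least 2-fold in 1 comparison. Those named below it (Igfbp1, Pappa, Stc1, Stc2, Igf2bp1, Igf2bp3, Ins2, Insr, Irs1, Akt1, Akt2 and Slc2a4) were chosen after their values were seen. For each member with a range of at least 1 over the time course, the 3 nearest kept genes are named. Listed genes without a probe set of their own are not analysed here. The counting was tested on simulated data. Alternatives were centring, quantile normalization within the sets and over 6 arrays, cyclic loess, no filter, a filter 1 log2 unit higher, the mean or median of a gene's probe sets, and 1.5-fold. R 4.3.3 with limma 3.58.1 and Python 3.11.15 were used.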

Additional observations from a re-analysis of the deposited data

How the results depend on the processing

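With a threshold of 1.5-fold in place of 2-fold, 5 IGF system genes were apart in place of 2 for day 0 against GM, 5 in place of 3 for day 2 against day 0, and 2 in place of 1 for shRp58 against control cells. The pathway genes apart were then 21 for day 0 against GM, 14 for day 2 against day 0, 25 for day 4 against day 0, 10 for day 4 against day 2 and 5 in the stable lines, in place of 8, 7, 12, 2 and 1. After cyclic loess normalization 1 IGF system gene was apart at day 0 against GM in place of 2, because Igfbp5 stood at 0.999, and Igfbp2 stood at -0.97 for day 2 against day 0. Taking the mean or the median of a gene's probe sets gave 0 genes apart in the stable lines in place of 1, because Igf2 then stood at -0.59. It also put Igfbp5 at 0.68 and Igf2r at 1.03 for day 0 against GM. The other counts of genes apart were within 1.5 times their values, and a filter 1 log2 unit higher kept 9 of the 10 genes. Centring and both quantile normalizations moved none of the 50 member differences across 2-fold. No difference past 2-fold changed sign under the 4 normalizations or the 2 summaries of probe sets. No paired analysis was possible because each group held 1 array. With 1 array a group, no replicate could be left out, and the dim probe sets of Igf1 and Igfbp3 limit the size of their differences.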
